A study of Homo sapiens with 4 samples.

Results

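AluY regions are the stretches of the 2 count tables whose repeat on the region's own strand is an AluY element. A row was a member when every name in its repeat column started with AluY. This chose 17624 of 2310971 regions (0.763%) in the table of total RNA and 34325 of 3814162 regions (0.9%) in the table of RNA bound by J2, an antibody against double-stranded RNA. The members carried 25 subfamily names, from AluY itself to AluYk12. The cells were NCI-H1944, an established human lung adenocarcinoma line labelled as wild type. For 48 h they were given DMSO, the solvent, or 100 nM of the compound BAY-1217389, which blocks MPS1, a kinase of the spindle checkpoint, and 24 h of culture without it followed. Total RNA was taken from a small share of the lysate (Input), and J2 precipitated RNA from the rest. The 4 groups (Input and J2 of DMSO cells, Input and J2 of MPS1i cells) were 1 library each. Differences therefore carry no replicate check, and p-values are not given.

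Alu elements are short primate retroelements, made of a left and a right arm joined by an A-rich linker and ended by a run of A. The left arm holds an internal RNA polymerase III promoter made of an A box and a B box. AluJ is the oldest branch, AluS came later, and AluY is the youngest and holds the copies that still move, AluYa5 and AluYb8 among them. Most copies are transcribed only as passengers in introns and other long RNAs of polymerase II. Where such an RNA holds 2 copies in opposite orientation they can pair with each other, and such inverted Alus are a main source of double-stranded RNA in human cells, a substrate of the editing enzyme ADAR and a potential ligand of the sensor MDA5.

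A region is rarely a whole Alu copy, so 3 words of 9 bases were searched in the members: TGGCTCACG (left arm, with the start of the A box), TCGAGACCA (B box) and CTGCACTCC (right arm), on both strands. Bases came from GENCODE release 29 transcripts (GRCh38), and only regions inside an exon of either strand were readable. Over all readable members of at least 100 bp, most words lay on the strand that the repeat column gives. Of 309 such J2 regions, 56.6% held at least 1 of the 3 words on the region's strand and 2.91% held a reverse complement. In the Input table these shares were 54.9% and 2.26% of 266 regions. AluS regions held a word in 42.7% and AluJ regions in 26.1% of the J2 regions, and 0.342% of 35116 RefSeq promoter windows of 300 bases (GRCh38.p14) did. The B box word was in 20.1% of the J2 AluY regions, 13.9% of AluS and 4.75% of AluJ regions. Among regions centred in a copy the order differed, with 11.6% of 43 AluY and 13.4% of 269 AluS regions in J2, and 3.23% of 31 and 12.9% of 224 in Input. Any word was in 48.8% of such AluY and 37.5% of such AluS regions in J2, and in 32.3% and 37.1% in Input. CpG sites, which mutate away as a copy ages, had a median of 3 per 100 bases in J2 AluY regions, 1.77 in AluS and 0.893 in AluJ regions. A word match describes the letters only, and a readable region overlaps a transcript, so these regions are not a random draw of the members. Only 44 J2 and 20 Input members overlapped an exon on their own strand, so most readable AluY regions lay opposite an exon.

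Over all regions, the Input libraries held 6381610 reads for DMSO and 4844956 for MPS1i, and the J2 libraries 9793355 for DMSO and 6697479 for MPS1i. Members took 25965, 18718, 80921 and 45022 of them, in that order. The mitochondrial genome took 24.3% and 20.2% of the Input reads and under 1% of the J2 reads. The MPS1i Input library stood apart in breadth: after thinning each table to equal totals, it had a read in 21.0% of all Input regions, against 35.7% for DMSO Input, and in 20.9% against 31.8% of the members. The J2 libraries had a read in 27.5% (DMSO) and 27.6% (MPS1i) of the members. Of the label's lung epithelium markers, 6 of 10 reached 1 CPM (reads scaled to the library total) in DMSO Input, against 1 of 10 for fibroblast, 0 of 10 for leukocyte and 1 of 5 for endothelium.

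Most members were short, many were empty, and a few long ones held a large share of the J2 reads. The median length was 88 bp in both tables, and 49.5% of Input and 50.3% of J2 members had no read. Regions of up to 100 bp were 59.1% of the J2 members and held 6506 DMSO and 4847 MPS1i reads. The 568 regions over 500 bp were 1.65% of the members and held 37300 and 19301 reads (46.1% and 42.9%). In Input, regions of 101 to 300 bp held the most member reads, 42.6% of DMSO and 47.0% of MPS1i. Regions over 500 bp held 23.8% and 20.9% there. The 10 members with the most reads held 19.1% of the DMSO J2 and 20.6% of the MPS1i J2 reads of all members. Such long regions run past the Alu: the centre of the region lay in an AluY copy for 80.7% of the J2 members, but these held only 26.7% of the DMSO J2 reads of members. In 76.4% of the Input and 74.7% of the J2 members, a region of the other strand covered part of the member. Only 20 Input and 44 J2 members overlapped an annotated exon on their own strand, the 44 with 8144 DMSO J2 reads, so the counts are mostly those of intronic and intergenic RNA.

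**Figure D1:**
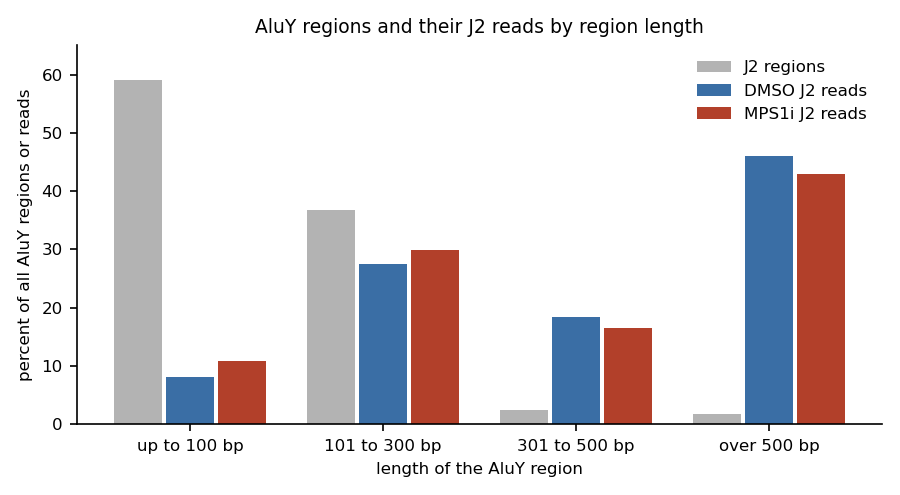
Share of J2 AluY regions (grey), of their DMSO J2 reads (blue) and of their MPS1i J2 reads (red) in 4 classes of region length, in percent of all AluY regions or reads. Regions of up to 100 bp are 59.1% of the regions, while the 1.65% of regions over 500 bp hold the tallest bars of reads.

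J2-bound AluY RNA took a smaller share of the library after the inhibitor. AluY regions had 8263 CPM in DMSO J2 and 6722 CPM in MPS1i J2, a log2 ratio of -0.30. The exact (Clopper-Pearson) 95% interval, here and below, covers counting error of the reads only, and reached from -0.31 to -0.28. In total RNA the same sums were 4069 and 3863 CPM, a log2 ratio of -0.07 (interval -0.10 to -0.05). The median of all J2 regions with at least 50 reads was -0.21 and that of all Input regions 0.07, so J2 regions of all kinds had a median below 0 as well. CPM are shares of a bulk library. A fall of AluY RNA, in fewer cells or per cell, and a rise of other RNA cannot be told apart in them.

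AluS could not be separated from AluY in J2 beyond counting error, and AluJ was slightly lower. AluS regions had a log2 ratio of -0.30 in J2 and 0.04 in Input, and AluJ regions -0.37 and -0.12. AluY minus AluS was -0.0019 in J2 (interval -0.02 to 0.02), and AluY minus AluJ was 0.07 (0.05 to 0.09). Within AluY, the ratio differed by the length of the region: the J2 log2 ratio was 0.12 (0.07 to 0.18) for regions of up to 100 bp, -0.17 for 101 to 300 bp, -0.46 for 301 to 500 bp and -0.40 for longer ones. When at most 1 read per region was counted at equal totals, the J2 ratio was -0.0043.

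Summed over members, J2 held AluY RNA at a larger share than total RNA did. J2 over Input was 1.02 on the log2 scale in DMSO cells (1.00 to 1.04) and 0.80 in MPS1i cells (0.77 to 0.82), a change of -0.22 (-0.25 to -0.19). The tables have separate regions, with 4059 kb of members in J2 and 2135 kb in Input. On stretches matched between J2 and Input, described below, the ratios were 0.42 in DMSO and -0.04 in MPS1i cells. Without the pair with the most reads they were 0.034 and -0.25. Per kb covered, the levels were 1.91 CPM for DMSO and 1.81 CPM for MPS1i cells in Input, and 2.04 CPM and 1.66 CPM in J2. The mitochondrial reads of the Input libraries move with this comparison: without them, J2 over Input was 0.63 in DMSO and 0.49 in MPS1i cells. Centred on the median of all regions, the change of enrichment was 0.05.

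Place in the genome separated the members more than branch did. AluY regions lying in a gene on the gene's strand (sense) had 60461 DMSO and 29735 MPS1i J2 reads, a log2 ratio of -0.48 (-0.50 to -0.46). Regions on the strand opposite a gene (antisense) had 4595 and 4103, a log2 ratio of 0.38 (0.32 to 0.45), and regions outside genes 15865 and 11184, a ratio of 0.04. The share of AluY J2 reads from sense regions was 74.7% in DMSO and 66.0% in MPS1i cells. In Input the order was sense -0.32, antisense 0.23 and outside 0.56, so the 2 kinds of library differed most outside genes.

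Regions centred in an AluY copy, which hold less flanking sequence, were below 0 when sense and above 0 in the other places. Their J2 log2 ratios were -0.52 for sense (15736 and 7482 reads), 0.49 for antisense (1427 and 1371) and 0.42 for regions outside genes (4420 and 4032). In Input they were -0.21, 0.71 and 0.91. Regions centred elsewhere had J2 ratios of -0.46, 0.33 and -0.13. Regions outside genes thus had ratios of different sign in J2 by whether the copy was at the centre. Regions centred in an AluY copy but with no AluY name on their own strand are not members. They had 13552 and 8001 J2 reads, a log2 ratio of -0.21, close to the -0.20 of the members centred in a copy. The same copy can enter both sets, on opposite strands.

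**Figure D2:**
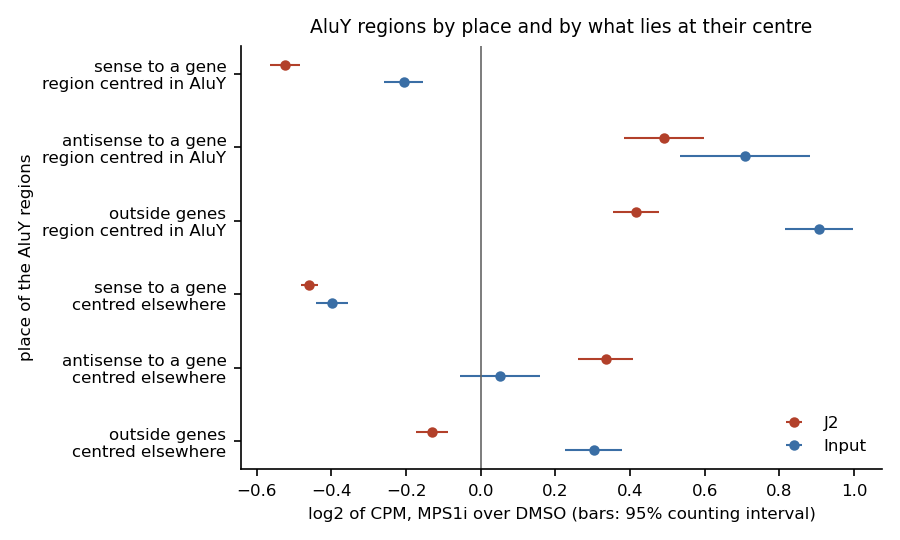
Log2 ratio of CPM, MPS1i over DMSO, of AluY regions in J2 (red) and Input (blue) by place relative to genes and by whether an AluY copy lies at the region's centre, with 95% counting intervals. Sense regions lie below 0 in all 4 comparisons, and regions centred in a copy outside genes lie above 0 in both kinds of library (0.42 in J2 and 0.91 in Input).

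The annotation classes deposited with the regions, which ignore strand, showed the same division. Intron regions had 48183 and 23095 J2 reads, a log2 ratio of -0.51, and intergenic regions 20850 and 14705, a ratio of 0.04. Split by strand, intron regions were -0.58 when sense and 0.39 when antisense to the gene. In Input, intron regions were -0.33 and intergenic regions 0.54. Promoter regions (promoter-TSS) had 2095 and 833 J2 reads, a ratio of -0.78, and 936 and 528 Input reads, a ratio of -0.43. Regions at transcript ends (TTS) had 8828 and 5721 J2 reads (-0.08). The 3′ UTR class had 677 and 477 J2 reads (0.04), but only 1 of its 293 regions overlapped an exon on its own strand, and 226 lay antisense to a gene. The 5 exon regions had 156 and 52 J2 reads (-1.04), almost all in 4 regions antisense to a gene, and the non-coding class 125 and 131 (0.62).

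Summed over members, J2 over Input was higher near an Alu region on the opposite strand than far from one. Members overlapping an Alu region on the other strand had J2 over Input at 1.20 on the log2 scale in DMSO cells, those within 1000 bp of one at 1.71, those within 5000 bp at 0.42 and those farther away at -0.07 (-0.12 to -0.01). With the Alu regions of both tables pooled, so that a distance means the same in J2 and Input, the 4 values were 1.13, 1.5, 0.45 and 0.26. AluS regions gave 0.74, 1.41, 0.43 and 0.34, and AluJ regions 1.11, 1.14, 0.59 and 0.32. The class within 1000 bp was thus highest in AluY and AluS, while in AluJ its interval overlapped that of the first class. In AluY regions over 500 bp, the overlapping class was higher (2.32 against 1.98 within 1000 bp), and up to 100 bp it was below the farther class (-0.017 against 0.30). These are sums over regions called separately in each table, and each class covered more kb in J2. Per kb covered, overlapping AluY regions had 3.3 CPM in DMSO Input and 3.68 in DMSO J2, those within 1000 bp 1.95 and 2.34, those within 5000 bp 1.36 and 1.03, and those farther away 0.676 and 0.472. An Alu region on the other strand is any row that names an Alu, and it can be empty. Such rows can be long: J2 rows naming AluY beside other repeats had a median length of 11830 bp. The distance runs to the edge of the row, so the inverted copy itself can lie farther away. Pairing of RNA was not measured.

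The same classes differed after the inhibitor. J2 reads of members overlapping an opposite-strand Alu region were 52225 in DMSO and 24207 in MPS1i cells, a log2 ratio of -0.56 (-0.58 to -0.54). The ratio was -0.18 within 1000 bp (13996 and 8475 reads), 0.11 within 5000 bp (8601 and 6341) and 0.52 farther away (6099 and 5999). Input had -0.44, -0.02, 0.12 and 0.63 in the same order. The order held for regions outside genes, with -0.62 when overlapping (6854 and 3051 reads) and 0.76 when farther (2364 and 2735). Sense regions had -0.56 and 0.31. Antisense regions had 0.21 when overlapping, with an interval that included 0 (-0.0046 to 0.42). They had 0.53 within 1000 bp, 0.22 within 5000 bp and 0.43 farther away, so the order did not hold in that place. Members that no region of any kind overlapped on the other strand had 4243 and 3633 J2 reads, a ratio of 0.32. With the Alu regions of both tables, the overlapping and the farther members had J2 ratios on opposite sides of 0 in each length class. The 2 values were -0.39 and 0.74 up to 100 bp, -0.43 and 0.69 for 101 to 300 bp, -0.69 and 0.48 for 301 to 500 bp, and -0.60 and 0.35 for longer regions.

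**Figure D3:**
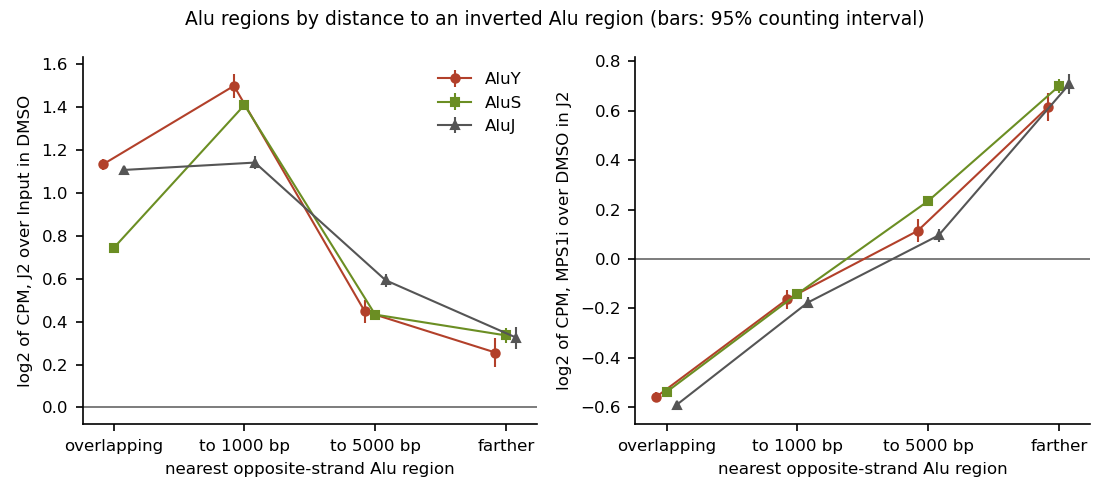
Left, log2 ratio of J2 to Input CPM in DMSO cells; right, log2 ratio of MPS1i to DMSO CPM in J2, for AluY, AluS and AluJ regions by distance to the nearest Alu region of either table on the opposite strand, with 95% counting intervals. On the left the AluY points run 1.13, 1.5, 0.45 and 0.26, and on the right the ratio is negative up to 1000 bp and positive beyond.

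Among subfamilies, AluY without a further letter held 86.2% of the AluY J2 reads in DMSO cells, with 69770 and 39045 reads and a log2 ratio of -0.29. A subfamily, region or gene is called higher or lower below when it had at least 50 reads in the 2 libraries together, a ratio of at least 2-fold and an interval that excludes no difference. Of 23 subfamilies with enough J2 reads, 0 were called higher and 1 lower, against 9.57% higher and 6.36% lower of all 1400 repeat subfamilies. The median of the 23 was -0.29 and that of all subfamilies 0.09. In Input, 0 of 18 were called in either direction, against 12.3% higher and 3.56% lower of 1180.

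In J2, AluYa5 and AluYb8, named above for copies that still move, did not stand below the median of the tested subfamilies (-0.29). This does not extend to every small AluY subfamily. AluYa8 (-0.87) and AluYg6 (-0.96), described below, were lower than that median. Without their largest region they were at -0.40 and -0.38, with intervals that included it. AluYa5 had 785 and 541 J2 reads, a log2 ratio of 0.01 (-0.15 to 0.17), and 439 and 355 Input reads, a ratio of 0.09. Its regions centred in a copy had 233 and 226 J2 reads (0.50) and 110 and 160 Input reads (0.94), while those centred elsewhere had J2 and Input ratios of -0.26 and -0.36. AluYb8 had 374 and 244 J2 reads (-0.07, -0.31 to 0.17) and 372 and 203 Input reads (-0.48). Of those 372, 109 came from 1 region in SNHG16, a small nucleolar RNA host gene, described below. AluYm1 (2078 and 1108 J2 reads, -0.36), AluYj4 (1540 and 810, -0.38) and AluYc (1024 and 554, -0.34) had J2 intervals below 0. In Input, AluYm1 was at -0.46 (-0.62 to -0.30), AluYj4 at -0.01 and AluYc at -0.12 (-0.31 to 0.06). Of the 1097 and 825 AluYj4 Input reads, 534 and 519 came from 1 region in RC3H1, described below. The AluYj4 Input ratio therefore rests largely on that region. AluYk4 had 527 and 255 J2 reads (-0.50) but 239 and 219 Input reads (0.27, 0.0002 to 0.54). Of its J2 reads, 163 and 61 came from 1 region in SNAI3-AS1, and the rest gave -0.36.

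Several small subfamilies rested on 1 region. AluYh9, the 1 called lower, had 84 and 16 J2 reads (-1.84), of which 78 and 8 came from a region in HNRNPC. The rest had 6 and 8 reads. AluYg6 had 460 and 162 (-0.96), of which 191 and 21 lay in SREBF2, the gene of a regulator of cholesterol synthesis, and the rest gave -0.38. AluYa8 had 150 and 56 (-0.87), and -0.40 without its region in MEAF6. AluYc3 had 267 and 108 (-0.76), and -0.41 without its region in RHPN2. AluYi6, at 0.26, gave -0.15 without its region antisense to CDC26, a subunit of the anaphase-promoting complex. AluYk11 moved down as well, from -0.07 to -0.47 without its region in CHFR and ZNF605. Regions naming both AluY and AluYk11 had 428 and 58 reads (-2.34), nearly all in 1 region of HP1BP3 with 417 and 53.

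Introns and intergenic regions differed within subfamilies too. In J2, 14 subfamilies had at least 50 reads in both classes, and the intron ratio was below 0 in all 14, with an interval below 0 in 13. The intergenic ratio was above 0 in 12, with an interval above 0 in 6, and exceeded the intron ratio in 13. AluYb8 had -0.40 in introns (258 and 134 reads) and 0.47 in intergenic regions (114 and 108), AluYk4 -0.76 and 0.75, and AluYj4 -0.67 and 0.35. AluYh3a3, at -0.47 and -0.61, was the exception. In Input, the intergenic ratio exceeded the intron ratio in 9 of 11 subfamilies.

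**Figure D4:**
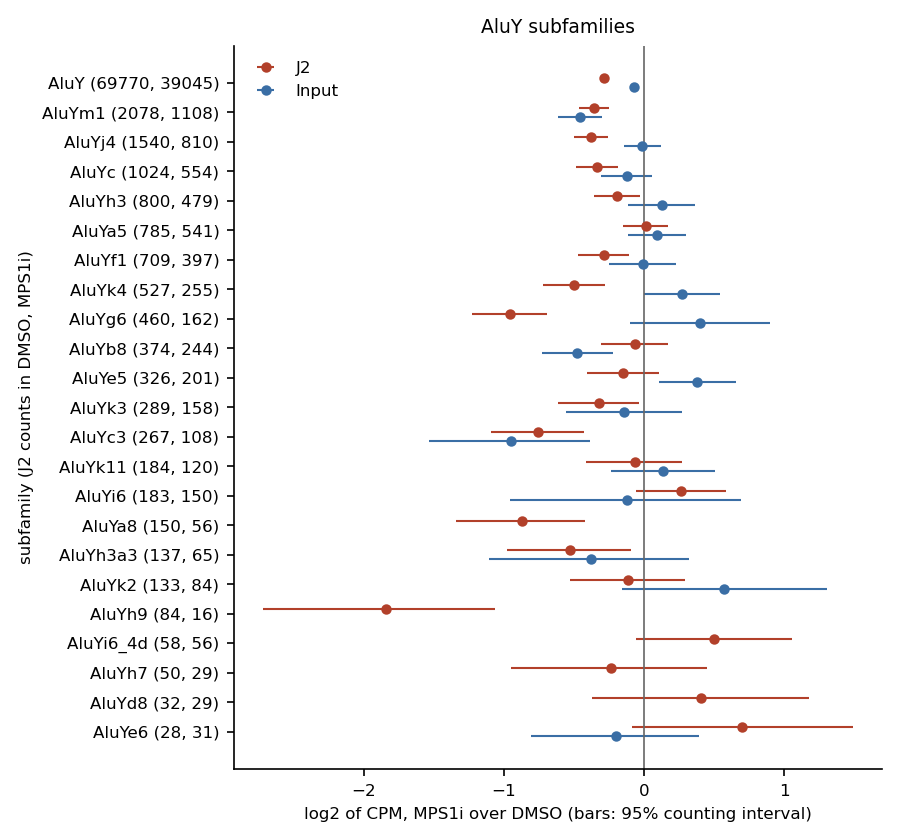
Log2 ratio of CPM, MPS1i over DMSO, for the 23 AluY subfamilies with at least 50 J2 reads, in J2 (red) and, where Input held at least 50 reads, in Input (blue), with 95% counting intervals and the J2 reads in brackets. Most J2 points lie between -0.50 and 0.01, and AluYh9 lies lowest at -1.84.

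Single regions were lower more often than higher in J2. Of 318 J2 members with at least 50 reads, 118 (37.1%) were called lower and 20 (6.29%) higher, against 27.2% lower and 12.5% higher of all J2 regions. The median of the 318 was -0.58. Centred on the median of all regions, 93 were lower and 34 higher. AluS had 35.4% called lower and AluJ 40.8%. In sense regions 106 of 224 were lower and 9 higher, in antisense regions 2 and 2 of 23, and outside genes 10 and 9 of 71. Of 101 Input members, 20 (19.8%) were lower and 12 (11.9%) higher, against 14.4% and 16.3% of all Input regions.

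The J2 members called lower by the widest margin lay in introns, on the strand of the host gene. A region in NEIL3, the gene of a DNA repair glycosylase, at chr4:177351736-177352622 had 205 and 17 J2 reads, a log2 ratio of -3.04 (-3.85 to -2.33). An Input region over the same AluY, chr4:177352301-177352624, had 58 and 0 reads, at least 14.7-fold lower when the 0 is set to the floor of 3 reads. A region in NSRP1, a splicing regulator of nuclear speckles, at chr17:30182910-30183218 had 108 and 7 reads (-3.40). In TXNRD1, the gene of thioredoxin reductase, chr12:104328777-104329315 had 525 and 66 (-2.44). An AluYh3 region in TBC1D8 had 48 and 2 (-4.04), and a region in GALNS, a lysosomal sulfatase, had 98 and 8 (-3.07). All 5 were centred outside the AluY copy.

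The members called higher by the widest margin were of mixed place. The region chr12:104453679-104454400, outside genes, had 1 and 76 J2 reads, a log2 ratio of 6.80 with an interval of 4.27 to 12.12. Antisense to ACOT13, an acyl-CoA thioesterase gene, chr6:24699227-24700422 had 37 and 123 (2.28). It lies beside a row with many repeat names, chr6:24666961-24698422, that runs over TDP2 and had 431 and 2678. A region in NCAM2, a neural cell adhesion gene, had 36 and 116 (2.24), and a region in TES, the gene of a focal adhesion protein, 25 and 70 (2.03). In GNAQ, a G protein subunit, the 86 bp of chr9:77822946-77823031 were centred in the copy and had 77 and 161 (1.61). The NCAM2, TES and GNAQ genes without their AluY rows had ratios of -0.20, 0.15 and -0.72, all past neither threshold.

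The members with the most J2 reads did not move together. The largest, chr19:57902847-57905048, lies on the strand of ZNF417, a zinc finger gene, and of AC010326.2 in GENCODE, and is intergenic in the deposited annotation. It had 2762 and 2008 reads, a log2 ratio of 0.09. The region chr17:81881632-81882402, outside genes, had 3168 and 945 and was called lower (-1.20). Next to it, the Input region chr17:81881127-81881607 had 95 and 8 (-3.17). A region at the end of ACBD3, a Golgi protein gene, had 2115 and 810 (-0.84). A region in SLC25A51, the mitochondrial NAD carrier, had 1784 and 962 (-0.34). A 152 bp region in SH3GLB1, a membrane-curving protein gene, had 1109 and 1507 (0.99), just inside the 2-fold limit, and overlaps an annotated exon.

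**Figure D5:**
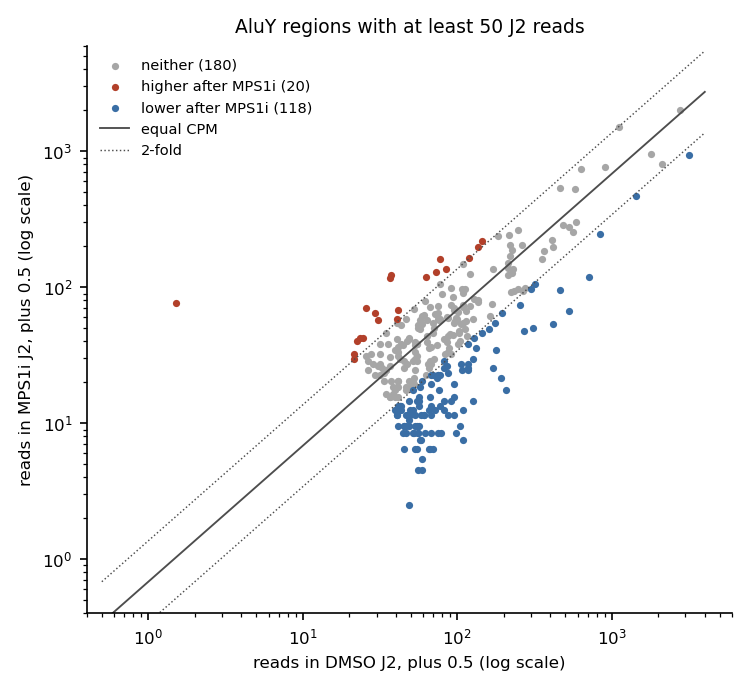
Reads in DMSO J2 and MPS1i J2 (both plus 0.5, log axes) of the 318 AluY regions with at least 50 J2 reads, with the lines of equal CPM and of 2-fold. The 118 regions called lower (blue) outnumber the 20 called higher (red).

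Of the regions centred in an AluY copy, 39 had enough J2 reads, and 15 (38.5%) were called lower and 3 (7.69%) higher, against 27.2% and 12.5% of all J2 regions. In EIF4B, a translation initiation factor gene, chr12:53028198-53028556 had 268 and 47 reads (-1.96). In ACACA, the gene of acetyl-CoA carboxylase, chr17:37151565-37151909 had 55 and 4 (-3.23). A region in AHCYL2 had 460 and 95 (-1.73) but is 3905 bp long. The 3 higher ones lay in GNAQ, in TTF2, a transcription termination factor gene (24 and 42, 1.36), and in CHD2, a chromatin remodeller gene (AluYa5, 40 and 58, 1.08). These regions were singled out after their values were seen.

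In Input, the AluYb8 region in SNHG16 had the widest drop, with 109 reads in DMSO and 1 after the inhibitor (-6.37, -11.69 to -3.86). The rest of SNHG16 had 30 and 14. A region in KYNU, the gene of kynureninase, had 121 and 15 (-2.61), while the gene's other rows had 10486 and 7350 (-0.12). A region in MLPH, which links melanosomes to myosin, had 188 and 28 (-2.35), with its gene at -0.87. Of the Input members called higher, chr12:110717647-110718351, outside genes, had 9 and 55 (3.01). An AluYe5 region at chr2:121531044-121531384, annotated as a transcript end (TTS), on the strand of AC012447.1 and opposite CLASP1, had 17 and 63 (2.29). Others were chr21:33502594-33503352 (15 and 45, 1.98) and chr4:8359396-8360488 (74 and 154, 1.45), both outside genes. In BCDIN3D, an RNA methyltransferase gene, a region centred in the copy had 20 and 54 (1.83), and the gene's other rows were called higher as well (1.68). The other Input regions named here had a centre annotated as something other than an AluY copy.

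In J2, host genes were often lower along with their AluY regions. For 201 J2 members inside 1 gene on its strand, the gene's other rows had enough reads for a call. Of these 201 host values, 73 were called lower, 2 higher and 126 neither, against 19.8% lower and 15.6% higher of all genes in J2. Of the 97 lower members among them, 61 had a host called lower and 0 a host called higher. The medians were -0.90 for members and -0.74 for hosts, and 162 of 201 pairs had the same sign. Across the 201 regions Pearson's r was 0.57 and Spearman's rho 0.61. This is a description, since member and host come from the same 2 libraries and some members share a host. In Input, 12 of 54 hosts were lower and 1 higher, against 16.9% and 12.5% of all genes. The Input medians were -0.16 for members and -0.51 for hosts, 31 of 54 pairs had the same sign, and r was 0.47 and rho 0.36.

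Matched regions allow J2 and Input to be read on the same stretch. Regions of the tables were paired when they overlapped on the same strand by at least 90% of both. AluY gave 1444 pairs, with 5023 Input and 10329 J2 reads in DMSO cells, a log2 ratio of 0.42 (0.37 to 0.47), below the 1.02 of all members. In MPS1i cells the pairs had 3685 and 4971 reads, a ratio of -0.04 (-0.10 to 0.03). These sums rest on few pairs: without the pair with the most reads, chr17:81881632-81882402, they were 0.034 (-0.02 to 0.09) in DMSO and -0.25 in MPS1i cells, and without the 2 largest -0.18 and -0.37. The 1083 pairs centred in a copy had -0.15 (-0.26 to -0.05) in DMSO and -0.50 (-0.63 to -0.37) in MPS1i cells, while all regions centred in a copy, matched or not, had 0.54 and 0.23. By distance to an opposite-strand Alu region, the DMSO pairs had 0.55 when overlapping (-0.0065 without the largest pair), 0.64 within 1000 bp, -0.32 within 5000 bp and 0.18 farther away (-0.09 to 0.46). AluS pairs gave 0.20 and -0.10, and AluJ pairs 0.75 and 0.61. Of 39 AluY pairs with at least 50 reads in DMSO, 12 (30.8%) were higher in J2 and 3 (7.69%) lower, against 23.7% and 17.3% of all pairs. In MPS1i cells 8 of 28 (28.6%) were higher and 7 (25.0%) lower, against 24.1% and 16.9%.

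The pair most enriched in J2 was a copy at chr22:30487483-30487865 with an Alu region 11 bp away on the other strand. It had 6 Input and 120 J2 reads in DMSO cells (3.70) and 21 and 72 in MPS1i cells (1.31). The region chr17:81881632-81882402 had 466 and 3168 reads (2.15) in DMSO and 212 and 945 (1.69) in MPS1i cells. EIF4B had 40 and 268 (2.13), then 17 and 47 (1.00). The other 2 of the top 5 lay on the strand of ZNF417 (2.19) and at chr21:33502557-33503360 (2.01). At the low end, the AluYj4 region in RC3H1, the gene of the RNA-binding protein Roquin-1, had 534 Input and 21 J2 reads in DMSO cells (-5.29) and 519 and 4 in MPS1i cells (-7.49). It alone holds 534 of the 1097 DMSO Input reads of AluYj4. A region in ASPM, a spindle gene, had 101 and 29 (-2.42), and a region in RHBDD3 134 and 99 (-1.05). The other 2 were chr1:37454384-37454864 (-0.97) and an AluYf1 region at chr1:154980469-154980805 (-0.85), both past neither threshold.

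Genes of the interferon response held few AluY reads. Of 52 interferon-stimulated genes, 45 had enough J2 reads, and 44 were called higher and 0 lower, against 15.6% and 19.8% of all genes, with a median of 3.08 against -0.21 for all genes. Their 29 AluY regions, in 17 genes, had 19 DMSO and 83 MPS1i J2 reads in all, a log2 ratio of 2.68 (1.94 to 3.48), and 26 regions had 31 and 108 Input reads (2.20). No single region reached 50 reads. The region in IFI6 had 0 and 13 J2 reads, those in USP18, the protease of the ubiquitin-like ISG15, 5 and 20, and those in PARP9 12 and 22.

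The genes that bind, edit or sense double-stranded or Alu RNA gave another picture. This list shares IFIH1, DDX58, DHX58, OAS1, OAS2 and OAS3 with the interferon list. Of 31 such genes, 26 were measured in J2, and 8 of them were called higher and 4 lower (median 0.18), against 15.6% and 19.8% of all genes. Their 48 AluY regions had 139 and 51 J2 reads (-0.90, -1.39 to -0.43). The 1 region with enough reads was the AluYh9 region in HNRNPC, called lower with 78 and 8 (-2.74). The other 47 regions had 61 and 43 (0.044, -0.55 to 0.63), so the low sum is that of 1 region. In Input the list's 26 regions had 42 and 31 reads (-0.041, -0.76 to 0.66). HNRNPC binds runs of U in antisense Alu RNA and keeps such copies from being spliced as exons. The whole gene had 5478 and 924 J2 reads (-2.02), against 8923 and 8847 in Input (0.39).

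AluY regions in mitosis genes were lower along with the genes. Of 34 genes, 30 were measured in J2, with 1 called higher, 13 called lower and a median of -0.93, against 15.6% and 19.8% of all genes. Input had 0 higher and 21 lower of 31, against 12.5% and 16.9%, with a median of -1.47 against -0.23 for all genes. Their 38 AluY regions had 374 and 100 J2 reads (-1.35) and the 34 Input regions 193 and 36 (-2.03). Of the 3 J2 regions with enough reads 2 were called lower, against 27.2% of all J2 regions, and without the largest region the J2 sum was -1.03. KIF23, a kinesin of cytokinesis, had 177 and 34 reads in its AluY region (-1.83), and ESPL1, which codes for separase, 53 and 15 in its 3 regions (-1.27).

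Rows that name AluY beside other repeats are not members, and they went the other way. There were 14022 such J2 rows with a median length of 11830 bp, and they held 410227 DMSO and 323442 MPS1i reads, a log2 ratio of 0.21. The 11295 Input rows had 0.08. Among the rows with the largest gain were the one over TDP2 and antisense to ACOT13 (431 and 2678 J2 reads) and one antisense to OAS2, an interferon-induced synthetase gene (30 and 987).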

How the data were processed

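Reads of total RNA and of J2-bound RNA were counted by the authors per stranded region. The deposited values are raw counts in 2 tables, 1 for Input and 1 for J2, with separate regions, per the file headers. Per the submitters' processing notes, the build was GRCh38 (hg38) and the tools included STAR, featureCounts, HOMER, cutadapt, Trimmomatic and Trim Galore, with no version or role stated. Not given in the sources used here are the calling of regions and the treatment of duplicate reads and of reads that map to several Alu copies. Reads that fit several young copies can be placed on the wrong one or dropped, and an AluY sum would move with that choice.

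Counts were summed over members, scaled to the library's total over all regions (CPM) and compared as log2 ratios, with exact Clopper-Pearson 95% intervals of the 2 counts. Reads without molecular identifiers are not independent molecules, so intervals cover counting error only. The change of enrichment used a delta-method interval on counts plus 0.5. Calls needed at least 50 counts, 2-fold and an interval excluding no difference, and a 0 was set to a floor of 3 counts. Gene place and strand came from GENCODE release 29 by any overlap, and regions were matched between tables with bedtools 2.31.1 at 90% reciprocal overlap. No genome sequence was used here, so words were searched in transcript sequences. Sequences of single regions are not reported here. Call rates were checked on simulated counts that held counting error only, as the intervals assume, so variation between libraries was not covered. Python 3.11.15, numpy 2.4.6, pandas 2.3.3, scipy 1.17.1 and matplotlib 3.10.9 were used.

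Named regions were the 5 higher and 5 lower called members of each table with the largest conservative bound, the 5 with the most J2 counts, the 5 matched pairs at each end of J2 over Input in DMSO, every subfamily and annotation class with at least 50 counts, and members with at least 50 counts in genes of the interferon and double-stranded RNA lists. Members and lists were chosen with earlier results of these data known, and the regions centred in an AluY copy were chosen after their values were seen. Alternatives were other totals, thresholds, member rules and length limits, thinning and matched pairs.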

Additional observations from a re-analysis of the deposited data

Results flagged for a closer look

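Each result here had a log2 ratio of MPS1i to DMSO of opposite sign in J2 and in Input. With 1 library in each group, the difference between J2 and Input was not tested against replicates. AluYk4 regions had -0.50 in J2 and 0.27 in Input, where the interval began at 0.0002. Regions at transcript ends (TTS) had -0.078 in J2 and 0.13 in Input. Regions of 101 to 300 bp had -0.17 in J2 and 0.067 in Input. Regions centred in an AluY copy had -0.20 in J2 and 0.11 in Input.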

How the results depend on the processing

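Each sum was recomputed under other settings, and 23 of the 96 values that answer a comparison stayed within the counting interval or within 1.5 times the count. All ratios are log2, and the cause of each shift was not tested. With totals that leave out the mitochondrial genome, the Input ratio was -0.15, J2 over Input 0.63 in DMSO and 0.49 in MPS1i cells, and the change of enrichment -0.14. Centred on the median of all regions, the J2 ratio was -0.088, the Input ratio -0.14, J2 over Input 0.77 and 0.51, the change 0.052, introns -0.30, intergenic regions 0.25 and J2 regions called higher 34. With at most 1 read per region at equal totals these were -0.0043, -0.61, 0.49, 1.08, 0.60, -0.28 and 0.50, with AluY minus AluS 0.031 and minus AluJ 0.11. With every row naming AluY they were 0.13 in J2, 0.064 in Input, J2 over Input 0.28 and 0.35, change 0.070, introns 0.16, minus AluS 0.19 and minus AluJ 0.16. With regions of at most 500 bp they were -0.21, -0.020, 0.52 and 0.33, introns -0.44, intergenic 0.43, minus AluS 0.045 and minus AluJ 0.17. Without any overlap on the opposite strand they were 0.32, 0.42, 0.28, 0.19, change -0.093, introns 0.0008, intergenic 0.93, minus AluS 0.037 and minus AluJ -0.028.

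Chosen after seeing the data, regions centred in a copy gave -0.20 in J2, 0.11 in Input, J2 over Input 0.54 and 0.23, change -0.31, intergenic 0.38, minus AluS 0.029, minus AluJ 0.26, J2 calls of 3 higher and 15 lower and Input calls of 2 and 3. Matched pairs gave J2 over Input 0.42 and -0.035 and a change of -0.46. Without the pair with the most reads they gave 0.034 and -0.25, and pairs centred in a copy gave -0.15 and -0.50. A minimum of 20 counts gave 59 higher and 278 lower in J2 and 51 and 63 in Input, and a 1.5-fold limit gave 43 higher in J2 and 27 in Input. Without the 10 members with the most reads the J2 ratio was -0.32, and without the top 100 it was -0.33. Leaving out the largest region kept the sign of 22 of 24 subfamily ratios, and AluYh9 turned to 0.96. With Alu regions of both tables, J2 over Input in DMSO of the farther class turned to 0.26.

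No paired analysis was possible because each group is 1 library, and there was no replicate to leave out. Only 318 of 34325 J2 members and 101 of 17624 Input members had at least 50 reads, and the others were not called singly at this depth.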
